A study of Mus musculus with 10 samples.

Results

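Hemoglobin and heme synthesis transcripts were followed in the lungs of mice given bleomycin. The members are 5 genes listed by symbol, the alpha globin genes Hba-a1 and Hba-a2, the beta globin genes Hbb-bs and Hbb-bt, and Alas2, out of 33347 genes in the count table. All 5 were found, and 4 of them passed the low-count filter, Alas2 being the exception. The 10 libraries were made from lung tissue of wild-type (WT) mice that had received bleomycin, which breaks DNA and is used to bring on lung fibrosis. In 5 of them the mice had been injected with bone marrow cells of high aldehyde dehydrogenase activity (ALDHbr), and in the other 5 with bone marrow cells of low aldehyde dehydrogenase activity (ALDHdim). Strain, age, sex, doses and times are not stated in the labels, and no lung without bleomycin or without transferred cells was analysed here. The labels do not say that each library came from a separate mouse, so a p-value here reflects only how far these libraries scatter, which may be technical.

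Adult hemoglobin is a tetramer of alpha and beta chains, each holding a heme group that binds oxygen. The chains and most of the heme are made by red cell precursors in the marrow. Alas2 encodes the erythroid form of aminolevulinate synthase, the enzyme that starts heme synthesis, while Alas1 encodes the form found in other tissues. Young red cells still hold globin mRNA when they enter the blood, so a piece of lung carries globin mRNA with the blood in its vessels. Globin mRNA has also been described at low levels in other cells, including lung epithelium. In a bulk library, fewer red cells and less RNA per red cell cannot be told apart.

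On the mouse build GRCm38, Hba-a1 lies on chromosome 11 from 32283511 to 32284465 and Hba-a2 from 32296489 to 32297298, both on the plus strand and 12023 bases apart. Hbb-bs lies on chromosome 7 from 103826534 to 103828096 and Hbb-bt from 103812524 to 103813996, both on the minus strand and 12537 bases apart. Alas2 lies on chromosome X from 150547375 to 150570638. Each globin transcript has 3 exons. Laboratory mice carry different beta globin haplotypes, and Hbb-bs with Hbb-bt is the one in the reference genome. The labels do not state the haplotype of these mice.

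How far the copies of a pair can be told apart depends on their sequence, so the last 81 coding bases of each are shown, the length of the RNA read. The sequences are from the GENCODE M21 transcripts, 5′ to 3′ and ending with the stop codon, and the capital marks the base that differs within the pair.
Hba-a1: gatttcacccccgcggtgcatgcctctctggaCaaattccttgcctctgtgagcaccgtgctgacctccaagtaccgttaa
Hba-a2: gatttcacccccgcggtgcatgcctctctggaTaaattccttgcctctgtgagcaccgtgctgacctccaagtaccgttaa
Hbb-bs: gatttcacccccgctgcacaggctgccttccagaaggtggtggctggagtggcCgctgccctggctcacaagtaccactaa
Hbb-bt: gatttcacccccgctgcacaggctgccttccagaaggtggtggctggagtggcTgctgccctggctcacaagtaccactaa
Counted from the first base printed, the change is C33T from Hba-a1 to Hba-a2 and C54T from Hbb-bs to Hbb-bt. It is the only difference in the whole coding sequence of either pair, over 429 bases for alpha and 444 bases for beta. Over the last 300 bases of the Hba-a1 transcript, where 3′ reads fall, 139 of 220 windows of 81 bases (63.2%) also occurred in Hba-a2, and 123 of 220 (55.9%) did in the other direction. The beta copies differ more after the stop codon. For them 61 of 220 windows of Hbb-bs (27.7%) occurred in Hbb-bt, and 60 of 220 (27.3%) in the other direction. How the counting treated reads that match both copies is not stated in the labels, so the split within a pair, and the level of alpha against beta, are uncertain. Their dependence on that step was not tested.

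The levels of the globin genes ran in parallel across libraries. Whether the bases before their start sites have a part in that was not tested. The bases before the start of each member are described here. These are the 250 bases before the start annotated by RefSeq (GRCm38.p6), 5′ to 3′ on the gene's strand, and all 5 members had an entry. The RefSeq starts of Hba-a1, Hba-a2, Alas2 and both beta genes lie inside the GENCODE gene bounds given above, so part of each window is transcribed in the GENCODE model. Capitals mark matches on either strand to CCAAT, to GATAA, the core bound by GATA factors, to CACCC, the core bound by erythroid Krüppel-like factor, and to the TATA box core TATAA.
Hba-a1 (chr11:32283422-32283671, plus strand): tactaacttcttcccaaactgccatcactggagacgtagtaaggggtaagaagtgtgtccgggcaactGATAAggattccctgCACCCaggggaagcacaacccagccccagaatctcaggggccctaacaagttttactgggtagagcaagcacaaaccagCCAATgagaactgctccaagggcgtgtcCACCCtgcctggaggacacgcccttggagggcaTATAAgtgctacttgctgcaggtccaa
Hbb-bs (chr7:103827929-103828178, minus strand): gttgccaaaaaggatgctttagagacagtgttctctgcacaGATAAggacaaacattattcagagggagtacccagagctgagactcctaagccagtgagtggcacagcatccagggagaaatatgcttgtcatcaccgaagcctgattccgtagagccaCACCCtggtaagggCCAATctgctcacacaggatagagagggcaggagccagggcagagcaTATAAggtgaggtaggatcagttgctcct
Hbb-bt (chr7:103813924-103814173, minus strand): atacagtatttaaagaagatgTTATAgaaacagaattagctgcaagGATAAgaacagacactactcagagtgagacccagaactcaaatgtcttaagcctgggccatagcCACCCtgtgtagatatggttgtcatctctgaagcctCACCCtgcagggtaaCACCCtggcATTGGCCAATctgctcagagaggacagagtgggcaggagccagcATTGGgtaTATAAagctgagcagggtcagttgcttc
Alas2 (chrX:150547167-150547416, plus strand): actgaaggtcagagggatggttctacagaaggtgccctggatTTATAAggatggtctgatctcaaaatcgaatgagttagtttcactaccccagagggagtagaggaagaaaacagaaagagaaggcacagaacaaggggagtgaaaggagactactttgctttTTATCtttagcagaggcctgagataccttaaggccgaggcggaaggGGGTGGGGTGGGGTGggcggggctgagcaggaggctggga
The window of Hba-a2 is not printed because it holds the same letters as that of Hba-a1, shifted by 3 bases (247 of 247 compared). All 4 globin windows held at least 1 match to each of the 4 motifs. The Alas2 window held 3 of the motifs and lacked the letters CCAAT. Its matches to the TATA box core overlap each other. In 32851 RefSeq windows of the same length, CCAAT was found in 33.9%, GATAA in 22.6%, CACCC in 52.0%, TATAA in 22.8% and all 4 together in 0.968%. A match is a description of letters and not of a bound site.

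The libraries held 588063 to 2002947 counts and came from 3′ reads, so counts do not scale with transcript length. CPM are counts scaled to a common library size. The lung label was checked on its markers. Sftpc, the surfactant protein of alveolar type II cells, averaged 22835 ± 7902 CPM with ALDHbr cells and 20912 ± 5901 CPM with ALDHdim cells (SD, n = 5 each). ALDHbr 3 and ALDHbr 5 stand apart in detecting 24722 and 25377 genes, against 17044 to 21209 in the other 8 libraries. Values without both are given where a call changes.

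Hemoglobin mRNA was abundant and differed widely between libraries of the same group. The 4 globin genes together held 115157 counts, 75.1% of them from Hbb-bs, 10.9% from Hbb-bt, 8.24% from Hba-a1 and 5.79% from Hba-a2. Their share of a library's counts was 0.777, 1.098, 1.29, 1.37 and 0.436% in ALDHbr 1 to 5. In ALDHdim 1 to 5 it was 1.13, 1.26, 1.35, 0.162 and 0.201%. ALDHdim 4 and ALDHdim 5 were the lowest of the 10 and ALDHbr 5 the next, while the other 7 libraries lay between 0.777 and 1.37%. Counting error is small beside this spread, since the 95% Wilson interval ran from 0.155 to 0.170% in ALDHdim 4 and from 1.35 to 1.39% in ALDHbr 4. These intervals cover counting error only and take each count as an independent molecule. They are too narrow if reads copied by PCR were counted, and whether such copies were removed is not stated.

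Hbb-bs, a beta chain gene, ranked 11 of 33347 genes by mean level. In ALDHbr 1 to 5 it stood at 5444, 9633, 10967, 10100 and 3420 CPM. In ALDHdim 1 to 5 it stood at 8450, 9588, 10541, 1212 and 1544 CPM. The groups overlapped, with 3 ALDHdim libraries near the top of the range and 2 below every ALDHbr library. Hbb-bt, the other beta gene, was lower in each library, at 769, 1361, 1357, 1452 and 519 CPM in ALDHbr 1 to 5 and 1322, 1416, 1529, 199 and 207 CPM in ALDHdim 1 to 5. Libraries with high Hbb-bs were also high in Hbb-bt.

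The alpha genes were low in the same libraries, with the order of the higher ones differing. Hba-a1 stood at 737, 919, 1119, 1203 and 370 CPM in ALDHbr 1 to 5 and at 867, 1007, 1173, 124 and 153 CPM in ALDHdim 1 to 5. Hba-a2 stood at 538, 714, 787, 848 and 260 CPM in ALDHbr 1 to 5 and at 598, 698, 805, 81.7 and 99.4 CPM in ALDHdim 1 to 5. Both were lowest in ALDHdim 4 and ALDHdim 5, and neither separated the groups.

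**Figure D1:**
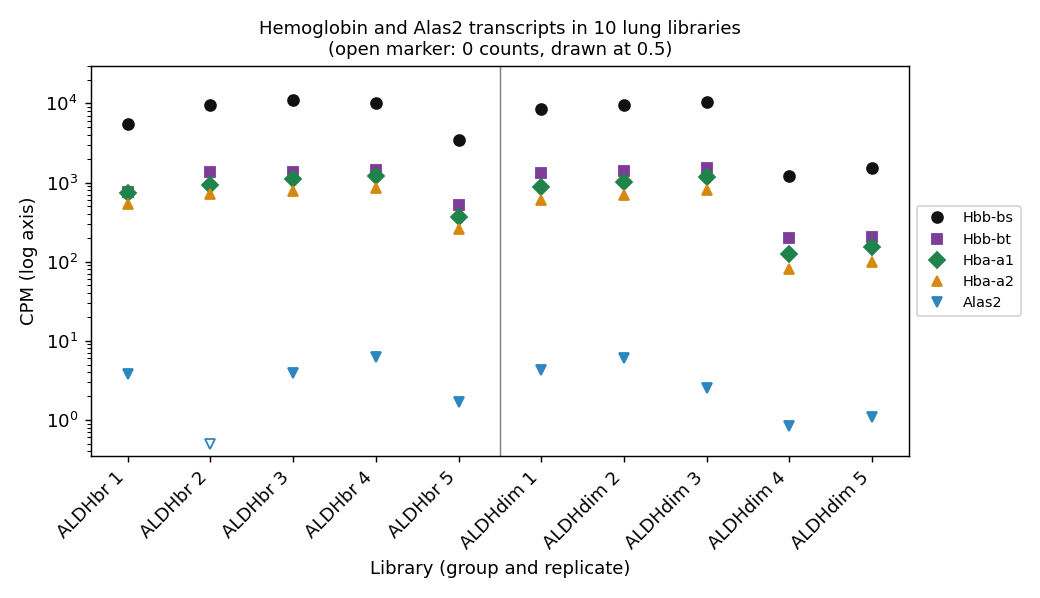
Level of each member (vertical, CPM on a log axis) in the 10 libraries (horizontal), 1 point per gene and library. The 4 globin genes rise and fall together, with ALDHdim 4 and ALDHdim 5 lowest (Hbb-bs 1212 and 1544 CPM) and Alas2 at 0 to 6.29 CPM, its library without counts drawn as an open marker.

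No globin gene passed the test between the groups. For Hba-a1 the means were 870 ± 333 CPM (ALDHbr) and 665 ± 493 CPM (ALDHdim), with SD over n = 5 each, and the log2 difference was 0.39 (SE 0.64). Hba-a2 averaged 629 ± 237 and 456 ± 342 CPM (0.46, SE 0.65). Hbb-bs averaged 7913 ± 3292 and 6267 ± 4526 CPM (0.34, SE 0.64), and Hbb-bt 1092 ± 420 and 934 ± 672 CPM (0.22, SE 0.63). Positive values are higher in ALDHbr recipients. The adjusted p was 0.999 for each with edgeR's quasi-likelihood test. Of 10844 genes tested, 0 passed (0%), and 402 had an unadjusted p under 0.05 (3.71%), none of them a globin gene. DESeq2 also called 0 genes, with 1465 of 33347 at an unadjusted p under 0.05 (4.39%). The 95% intervals were wide. For Hbb-bs it ran from 0.470-fold to 3.39-fold and for Hba-a2 from 0.495-fold to 3.83-fold, so both intervals hold a 2-fold difference in either direction. The summed share was higher in ALDHbr recipients by 0.175 percentage points (exact two-sided permutation p = 0.60, also after adjustment over the share and the 4 ratios described next). It was 0.011 points without ALDHdim 4, 0.020 without ALDHdim 5, 0.080 without ALDHbr 4, 0.102 without ALDHbr 3, 0.314 without ALDHbr 5, 0.306 without ALDHdim 3 and 0.284 without ALDHdim 2. Without ALDHdim 4 the log2 fold change of Hbb-bt was −0.03, and without ALDHdim 5 also −0.03.

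Alpha counts were far below beta counts in every library. The ratio of summed alpha to summed beta was 0.205, 0.149, 0.155, 0.178 and 0.160 in ALDHbr 1 to 5 and 0.150, 0.155, 0.164, 0.146 and 0.144 in ALDHdim 1 to 5. ALDHbr 1 was the highest, and its 95% Wilson interval of 0.196 to 0.215 lay above the intervals of the other 9 libraries, the nearest being ALDHbr 4 at 0.170 to 0.185. Taking counts as independent molecules, the ratio varied by more than counting error. The chi-square per degree of freedom was 16.0 over all libraries, 21.9 among ALDHbr and 2.74 among ALDHdim libraries. The mean log2 ratio was −2.57 ± 0.19 in ALDHbr and −2.72 ± 0.074 in ALDHdim recipients, and the difference of 0.15 did not pass (exact permutation p = 0.14, adjusted 0.36). Without ALDHbr 1 it was 0.076.

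Hba-a1 exceeded Hba-a2 in each library, and by slightly more in ALDHdim recipients. Their ratio was 1.37, 1.29, 1.42, 1.42 and 1.42 in ALDHbr 1 to 5 and 1.45, 1.44, 1.46, 1.52 and 1.54 in ALDHdim 1 to 5. The groups did not overlap, although the gap between the highest ALDHbr and the lowest ALDHdim library was small. The mean log2 ratio was 0.47 ± 0.062 in ALDHbr and 0.57 ± 0.042 in ALDHdim recipients, a difference of −0.10 (exact two-sided permutation p = 0.0079, the smallest that 252 assignments allow; adjusted 0.040). The summed counts of each group gave 1.39 and 1.46, a log2 difference of −0.06 with a 95% counting interval of −0.16 to 0.03. Over the 10 libraries the chi-square per degree of freedom was 0.484, so the ratio spread by less than counting error. The adjusted p was 0.079 without ALDHbr 2, 0.12 without ALDHdim 4, 0.12 without ALDHdim 5 and 0.089 without both ALDHbr 3 and ALDHbr 5. With samples paired by replicate number, the exact sign-flip p was 0.0625, the smallest that 5 pairs allow (adjusted 0.31).

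Hbb-bs exceeded Hbb-bt by 6.10-fold to 8.08-fold. The ratio was 7.07, 7.08, 8.08, 6.96 and 6.59 in ALDHbr 1 to 5 and 6.39, 6.77, 6.89, 6.10 and 7.47 in ALDHdim 1 to 5. ALDHbr 3 was the highest, with a 95% Wilson interval of 7.58 to 8.62, and ALDHdim 4 the lowest, at 5.31 to 6.997. The spread exceeded counting error if counts are independent molecules, with a chi-square per degree of freedom of 4.57. The groups overlapped, with mean log2 ratios of 2.84 ± 0.11 and 2.75 ± 0.11 (difference 0.09, exact permutation p = 0.25, adjusted 0.41). The difference was 0.045 without ALDHbr 3 and 0.055 without ALDHdim 4. 

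**Figure D2:**
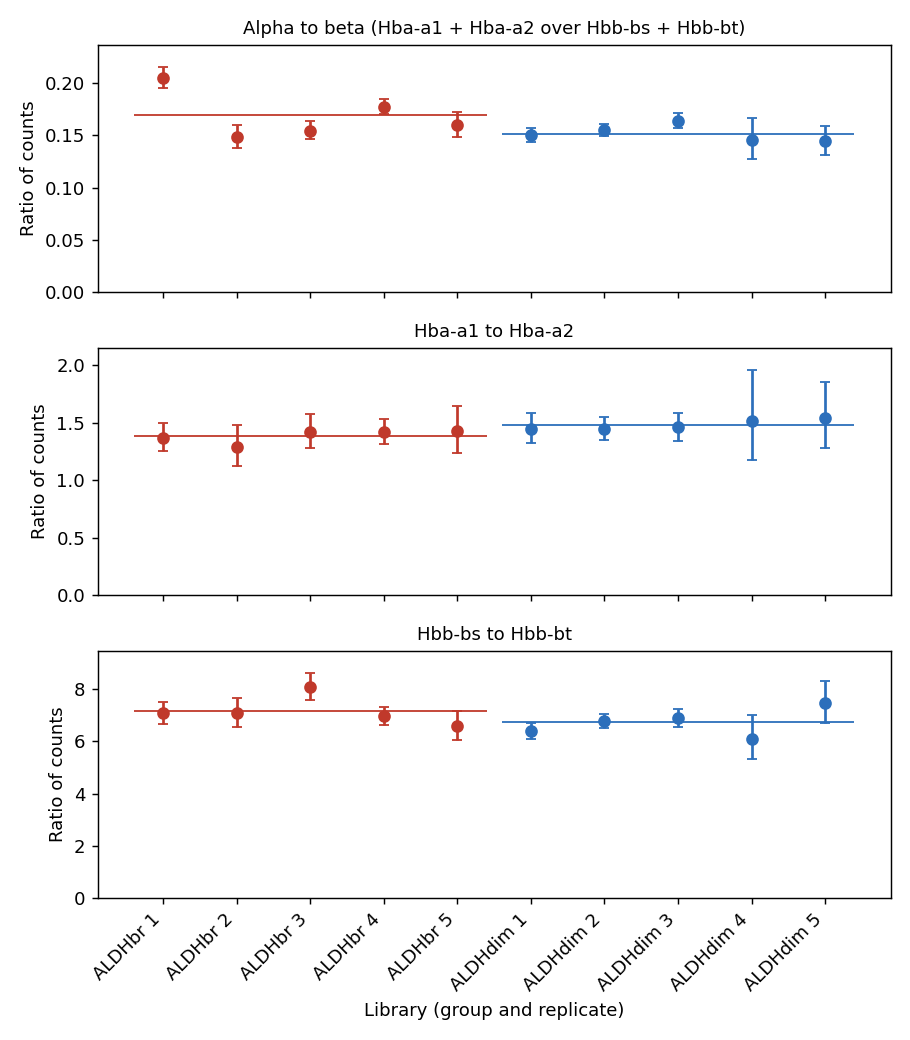
Ratios of counts (vertical, from 0) in the 10 libraries (horizontal) for alpha to beta, Hba-a1 to Hba-a2 and Hbb-bs to Hbb-bt. Points are libraries, bars are 95% Wilson intervals of counting error, and lines are group means; ALDHbr 1 stands highest in alpha to beta (0.205) and ALDHbr 3 in Hbb-bs to Hbb-bt (8.08).

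Alas2, the erythroid enzyme of the first step, was close to the limit of detection. It had 6, 0, 3, 8 and 2 counts in ALDHbr 1 to 5 and 6, 12, 3, 1 and 2 counts in ALDHdim 1 to 5, or 43 in all. The 0 in ALDHbr 2, the shallowest library, allows up to 5.87 CPM (3 counts), which is above the level of 7 of the other 9 libraries. Per 10000 globin counts, Alas2 had 5.07, 0, 2.73, 4.63 and 3.65 counts in ALDHbr 1 to 5 and 3.79, 4.76, 1.82, 5.21 and 5.49 in ALDHdim 1 to 5. The intervals of ALDHbr 1 (2.32 to 11.1) and ALDHdim 3 (0.618 to 5.34), the highest and the lowest by rate among libraries with 3 or more counts, overlapped. The mean log2 ratio of Alas2 to globin was −11.64 ± 1.17 in ALDHbr and −11.05 ± 0.74 in ALDHdim recipients (exact permutation p = 0.42, adjusted 0.53). That difference of −0.59 was −0.08 without ALDHbr 2, whose 0 counts enter through the pseudocount, and −0.06 on the summed counts of each group. Without the low-count filter, edgeR gave Alas2 a log2 fold change of 0.10 (SE 0.64, adjusted p = 0.95) and DESeq2 0.13 (SE 0.77, adjusted p = 0.9997).

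The heme synthesis enzymes shared by all tissues were well measured, and none passed. Of 8 listed and tested, 4 had higher and 4 lower estimates in ALDHbr recipients, with a median log2 fold change of 0.0074 beside 0.01 over all 10844 genes tested. Alas1, the housekeeping form of the first enzyme, had means of 285 ± 44.6 CPM (ALDHbr) and 339 ± 38.1 CPM (ALDHdim; log2 fold change −0.25, SE 0.14). Alas2 had 3.13 ± 2.40 and 2.96 ± 2.201 CPM. Alad, which joins aminolevulinate molecules, differed by 0.04 (SE 0.16) and Urod, a decarboxylase of the porphyrin ring, by −0.10 (SE 0.15). Fech, ferrochelatase, which inserts iron at the last step, averaged 58.5 ± 7.64 and 54.1 ± 10.99 CPM (0.09, SE 0.16). Of 7 carriers of iron and heme precursors, 6 were tested, 4 with higher and 2 with lower estimates (median 0.05), and 0 passed. Slc25a37 (mitoferrin 1), which brings iron into red cell mitochondria, differed by 0.02 (SE 0.21), and the most abundant, Slc25a39, a carrier of glutathione, by 0.07 (SE 0.12).

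Genes that define red cell precursors were near 0. Of 17 listed, 14 were in the table, none passed the filter, and together they held 175 counts, with at most 8 for a gene in a library. Their summed level was 8.23 to 28.5 CPM in ALDHbr and 7.69 to 17.7 CPM in ALDHdim libraries, against 1616 to 14230 CPM for summed globin over all libraries. Ank1 (ankyrin of the membrane skeleton) led with 39 counts. Slc4a1 (band 3, the anion exchanger of the red cell membrane) had 24 counts. The erythroid transcription factors Klf1 and Gata1 had 4 and 7 counts over the 10 libraries. Other globins were as rare, with 1 count for the embryonic Hbb-bh1, 3 for Hbq1a, 5 for Hbq1b and 6 for myoglobin (Mb). Ngb (neuroglobin) had 46. Cygb (cytoglobin), a globin of fibroblast-like cells, was the exception at 113 ± 21.4 and 102 ± 23.3 CPM (0.14, SE 0.17). Of 11 other globins listed, 6 were in the count table by symbol, and Hba-x, Hbb-y, Hbb-bh2, Hbb-b1 and Hbb-b2 were not found there.

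Of the regulators of red cell formation, 5 of 10 passed the filter, 3 with higher and 2 with lower estimates, and 0 passed the test (median 0.25, or 0.06 without ALDHbr 2). Tfrc, the transferrin receptor for iron uptake, which dividing cells and macrophages also use, was at 53.2, 54.8, 58.2, 45.6 and 65.0 CPM in ALDHbr 1 to 5. In ALDHdim 1 to 5 it was at 95.1, 69.6, 69.7, 69.9 and 71.4 CPM. Every ALDHdim library was above every ALDHbr library, which was so for 58 of 10844 genes in either direction (0.535%). Its log2 fold change of −0.44 (SE 0.15) had an adjusted p of 0.999. Lmo2, a partner of Tal1 in blood and endothelium, differed by 0.25 (SE 0.19), and Zfpm1, a cofactor of Gata1, by −0.04 (SE 0.29). Bcl11a, a repressor of embryonic and fetal globin genes that B cells also use, differed by 0.63 (SE 0.31, adjusted p = 0.999).

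Genes kept late in red cell maturation but also used by other tissues were all tested, 11 of 11, with 6 higher and 5 lower estimates, a median of 0.06 and 0 passing. Bnip3l, which removes mitochondria from young red cells, differed by 0.10 (SE 0.15). Epb41 (protein 4.1 of the membrane skeleton) differed by −0.0048 (SE 0.21), Car2 (carbonic anhydrase 2) by 0.21 (SE 0.14) and Mkrn1, a ubiquitin ligase, by 0.06 (SE 0.11). For the clearance of free hemoglobin and heme, 7 of 8 genes were tested, 2 with higher and 5 with lower estimates (median −0.05), and 0 passed. Hp (haptoglobin, which binds free hemoglobin) averaged 827 ± 138 and 923 ± 99.4 CPM (−0.16, SE 0.15), and Hmox1 (heme oxygenase 1, which opens the heme ring) 50.4 ± 17.2 and 53.4 ± 12.2 CPM (−0.04, SE 0.21). Lrp1, a receptor for heme bound to hemopexin, differed by −0.10 (SE 0.32) and Blvrb, a biliverdin reductase, by 0.36 (SE 0.24).

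**Figure D3:**
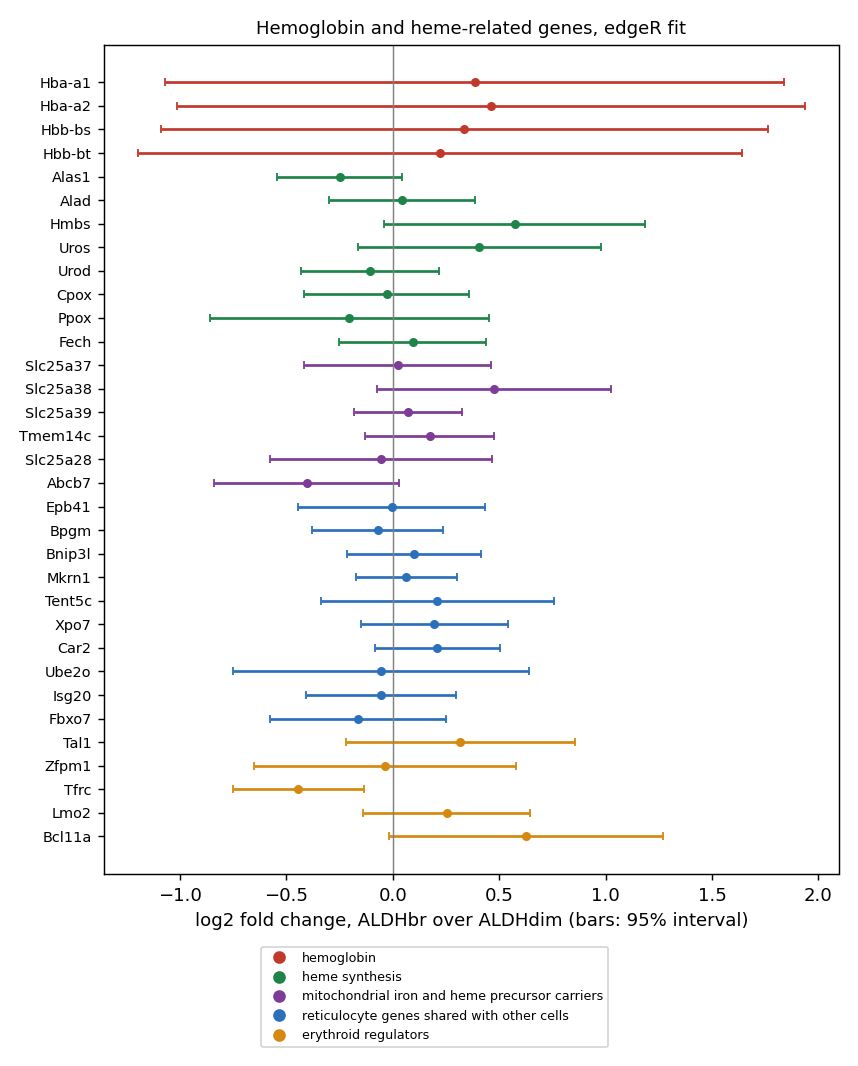
log2 fold change of ALDHbr over ALDHdim recipients (horizontal, with 95% intervals from the edgeR fit) for 4 globin genes and tested genes of 4 lists (vertical). The globin intervals are the widest shown and all include 0, as does each other interval but that of Tfrc (−0.44, adjusted p 0.999).

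Across the 10 libraries the globin genes ran closely in parallel. Over log2(CPM + 1), summed alpha and summed beta had Pearson r = 0.99 and Spearman rho = 0.95 (permutation p = 1e-05, the smallest that 100000 resamples can give, and 0.00016; adjusted over 8 relations 4e-05 and 0.00064). Without ALDHdim 4 and ALDHdim 5, the libraries farthest from the median, r was 0.96 (permutation p = 0.00027). Hba-a1 with Hba-a2 gave r = 0.999 and rho = 0.99 (permutation p = 1e-05 for both, adjusted 4e-05 and 8e-05), and r = 0.99 without those libraries. Hbb-bs with Hbb-bt gave r = 0.996 and rho = 0.87 (permutation p = 6e-05 and 0.002, adjusted 0.00016 and 0.0054), and r = 0.99 without them. Reads matching both copies of a pair add to such a relation in a way that was not tested. No correlation is given within the groups of 5 libraries.

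The relation of Alas2 to globin did not pass, at r = 0.49 and rho = 0.55 (permutation p = 0.16 and 0.10, adjusted 0.25 and 0.17). Without ALDHdim 4 and ALDHdim 5 its r was 0.18. The chi-square per degree of freedom of the Alas2 to globin ratio was 0.711 over all libraries, so the ratio spread by less than counting error. Against total counts globin had r = −0.29 and rho = −0.24 (permutation p = 0.42 and 0.51, adjusted 0.56 and 0.61). Platelet and mature neutrophil genes, the only other blood cell lists tested against globin, gave values near 0 or below. As a description, the median r was −0.03 for 3 B cell genes and −0.38 for 3 T cell genes. Against platelet genes r was −0.08 and rho −0.05 (permutation p = 0.84 and 0.89, adjusted 0.84 and 0.89). Against mature neutrophil genes r was −0.11 and rho −0.59 (permutation p = 0.75 and 0.081, adjusted 0.84 and 0.16), and r was 0.12 on the CPM scale. The 8 tested neutrophil genes had a median r of −0.14, with G0s2 highest at 0.54 (0.14 without ALDHdim 4 and ALDHdim 5). Against endothelial genes r was 0.52 and rho 0.22 (permutation p = 0.13 and 0.54, adjusted 0.25 and 0.61), and r was 0.06 without ALDHdim 4 and ALDHdim 5. The summed platelet level was 62.2 to 109 CPM in ALDHbr and 74.9 to 127 CPM in ALDHdim libraries. Of the 12 platelet genes 3 were tested, and Gp1bb and Tubb1 had 2 and 1 counts in all. The summed neutrophil level was 175 to 397 CPM in ALDHbr and 257 to 1156 CPM in ALDHdim libraries, with 1156 CPM in ALDHdim 2.

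Among genes outside the members, with predicted and clone names left out, those whose level most resembled summed globin included 1 of the heme pathway. Of the genes so ranked, the 10 of highest Pearson r over 10 libraries were Chil1 (0.96), Nlk (0.93), Pcmt1 (0.93), Napsa (0.92), Mfng (0.91), Fech (0.91), Clec1a (0.90), Tspyl1 (0.90), Zbtb24 (0.89) and Aard (0.89). Of 10840 genes, predicted and clone names included, 61 (0.563%) had r above 0.8, and the median r was −0.0046. Fech stood at 57.6, 60.6, 69.9, 55.1 and 49.1 CPM in ALDHbr 1 to 5 and at 59.6, 64.1, 61.2, 37.9 and 47.8 CPM in ALDHdim 1 to 5. It was lowest in the 3 libraries that were lowest in globin. Without ALDHdim 4 and ALDHdim 5 its r was 0.77, and that of Chil1, a chitinase-like secreted protein, was 0.84, while r was 0.24 for Aard and 0.45 for Tspyl1. These values are a description over 10 libraries, whose depth and composition the genes share, and carry no p.

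Within lists, genes of late red cell maturation had a median r of 0.59 with globin (11 genes, −0.56 to 0.83), and 0.39 without ALDHdim 4 and ALDHdim 5. Without them 7 of 11 genes were positive, from −0.78 for Car2 (0.64 with them) to 0.84 for Isg20 (0.42 with them). Over all libraries Tent5c, a poly(A) polymerase induced late in erythroid cells, had the highest at 0.83 (0.53 without ALDHdim 4 and ALDHdim 5). The 8 heme synthesis enzymes had a median r of 0.01, with Fech as the high value and Urod the low one at −0.29. Without ALDHdim 4 and ALDHdim 5 their median was −0.0030, and 4 of 8 were positive. Fech was then at 0.77, Alas1 at 0.68 (−0.22 with those libraries) and Alad at 0.59 (0.56 with them). Lung epithelium genes, which are no blood genes, had a median of 0.63 (6 genes, 0.13 to 0.73), and 0.42 without ALDHdim 4 and ALDHdim 5. Their summed level was 40716 and 36203 CPM in ALDHdim 4 and ALDHdim 5, against 40925 to 96427 CPM in the other 8 libraries. The next lowest were ALDHbr 4 (40925 CPM, globin 13602.5 CPM) and ALDHbr 5 (42565 CPM, globin 4569 CPM). Endothelial genes summed to 930 and 988 CPM in ALDHdim 4 and ALDHdim 5, against 1003 to 2153 CPM elsewhere. There the next lowest were ALDHbr 3 (1003 CPM, globin 14230 CPM) and ALDHbr 5 (1136 CPM). The part of epithelial and endothelial levels in these correlations was not tested.

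**Figure D4:**
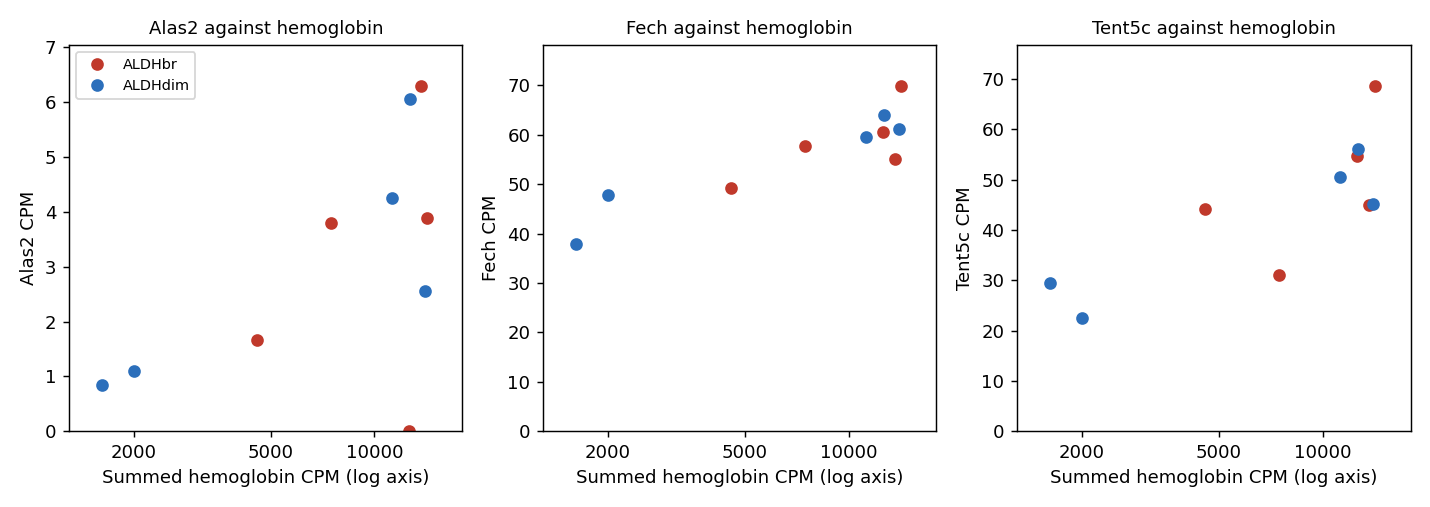
Alas2, Fech and Tent5c (vertical, CPM from 0) against summed globin (horizontal, CPM on a log axis), 1 point per library, colored by group. Fech is lowest in the 3 libraries of least globin, while Alas2 rests on 0 to 12 counts a library.

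**Figure D5:**
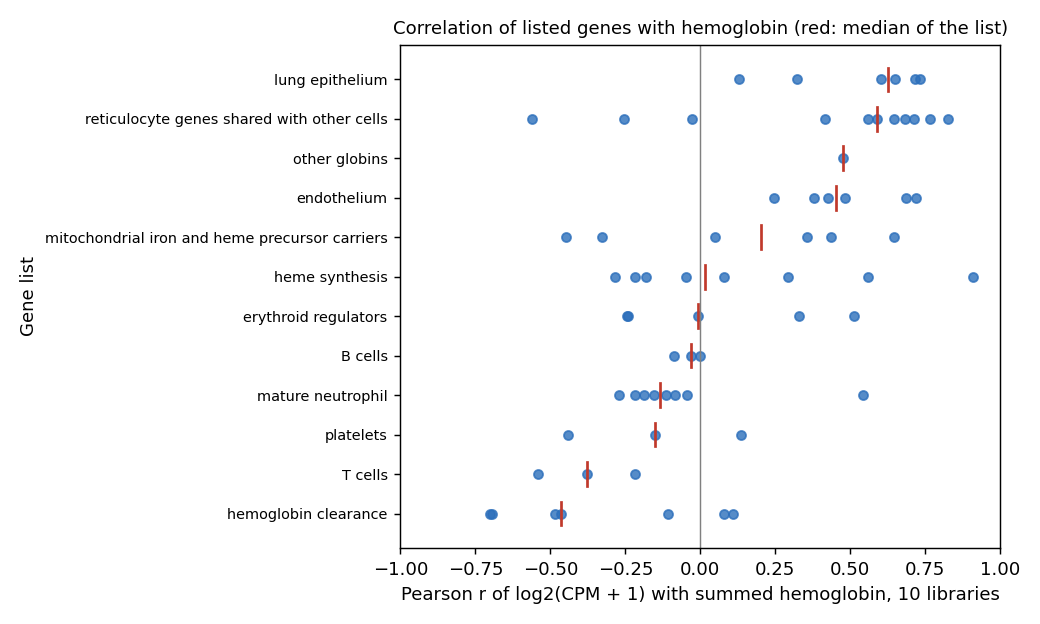
Pearson r with summed globin over 10 libraries (horizontal) for each tested gene of each list (vertical), with the list's median as a red line. Medians are highest for lung epithelium (0.63) and late red cell genes (0.59), or 0.42 and 0.39 without ALDHdim 4 and ALDHdim 5. They are lowest for hemoglobin clearance (−0.47, or 0.12 without those libraries). Fech is the highest of heme synthesis (0.91, or 0.77 without those libraries, with Alas1 then at 0.68 and Alad at 0.59).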

How the data were processed

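The authors deposited a table of raw counts, unnormalized, for 33347 genes in 10 lung libraries. Libraries were made by the 3′ method BRB-seq with 10 nt UMIs and 81 nt RNA reads, per the labels' protocols. Per the submitters' processing notes, HISAT2 2.2.1, featureCounts 2.0.1, Trim Galore 0.6.7, DESeq2 and UMI-tools were used, in roles that are not stated, and the builds named are GRCm38 and GRCh38. UMI collapsing, strand and the handling of reads that match several genes are not stated.

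Genes were kept by filterByExpr (minimum count 10; 10844 genes), scaled by TMM, and compared by the robust quasi-likelihood test of edgeR 4.0.16 in R 4.3.3. P-values were adjusted by Benjamini-Hochberg over all tested genes and called at 0.05. The test was also run on simulated data with changes put into genes drawn at random, which does not measure its power for the globin genes. CPM are relative to the counts of the tested genes after TMM scaling. Ratios used a pseudocount of 0.5 on each count in the tests only. Shares and ratios were compared by exact two-sided permutation over 252 assignments. Correlations used log2(CPM + 1). Genes named beside the members are, per list, up to 4 of highest mean level, plus the 10 of highest and 5 of lowest correlation with globin, and others singled out after their values were seen. Predicted and clone names were left out of the ranking by correlation. The members and lists were chosen with earlier results of these data known. Positions are from GENCODE M21. Alternatives were DESeq2 1.42.0, its size factors, no filter, the replicate number as a term, other library totals and leaving out libraries. Some listed genes are counted with their lists but not reported singly here.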

Additional observations from a re-analysis of the deposited data

How the results depend on the processing

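The count of 0 genes past the threshold held in each alternative but the one without the low-count filter, which gave 185 (182 higher and 3 lower), over 33347 genes whose median log2 fold change was 0.22 against 0.01 with the filter; none of the listed genes or globin genes passed there. The median was 0.28 with DESeq2. Leaving out each library in turn, the log2 fold change ran from 0.12 to 0.69 for Hba-a1, 0.19 to 0.76 for Hba-a2, 0.07 to 0.61 for Hbb-bs and −0.03 to 0.47 for Hbb-bt, which was −0.035 without ALDHdim 4 and −0.033 without ALDHdim 5. The Hba-a1 to Hba-a2 difference ran from −0.108 to −0.0719. It was −0.12 without both ALDHbr 3 and ALDHbr 5, and −0.10 with samples paired by replicate number (exact sign-flip p = 0.0625, the smallest that 5 pairs allow; adjusted 0.31). The correlation of globin with neutrophil genes was 0.12 on the CPM scale against −0.11. Same-numbered samples shared deviations with correlations of 0.058 to 0.36, and 3 of 5 ALDHbr samples correlated best with their own number. With the replicate block 0 genes passed, and 727 had an unadjusted p under 0.05 against 402. In that fit the log2 fold changes were 0.71 for Hba-a1, 0.80 for Hba-a2, 0.66 for Hbb-bs and 0.56 for Hbb-bt (SE 0.65 to 0.66). Each was above its range over the left-out libraries, and the adjusted p was 0.86 to 0.90 with edgeR's quasi-likelihood test. Depth limits Alas2 most, with 43 counts in all.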

Other observations

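Genes whose level ran opposite to globin were led by Hivep3 (r = −0.90), Txnrd1 (−0.89), Stk10 (−0.89), Colgalt1 (−0.89) and Fbln2 (−0.88), over 10 libraries and as a description. Predicted and clone names were left out here too. Txnrd1, a thioredoxin reductase, stood at 168 and 170 CPM in ALDHdim 4 and ALDHdim 5, against 80.2 to 120 CPM in the other 8 libraries. Fbln2 (fibulin 2) is a protein of the extracellular matrix, and Colgalt1 adds galactose to collagen. Without ALDHdim 4 and ALDHdim 5 the r of these 5 genes lay between −0.66 and −0.28, with Colgalt1 at −0.66 and Stk10 at −0.28.

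Genes of hemoglobin clearance had a median r of −0.47 with globin (7 genes), which rested on ALDHdim 4 and ALDHdim 5. Without them the median was 0.12 and 4 of 7 genes were positive. Lrp1 had r = −0.69 (−0.71 without them), Blvra, a biliverdin reductase, −0.70 (−0.40 without them), Hmox1 −0.48 (−0.0034 without them) and Slc40a1, the iron exporter ferroportin, −0.47 (0.12 without them). Hp had r = 0.11 (0.60 without them), Cd163, a receptor for hemoglobin bound to haptoglobin, 0.08 (0.42 without them) and Blvrb −0.11 (0.13 without them).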
